A study of Mus musculus with 4 samples.

Results

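Serpins are protease inhibitors, and 7 mouse serpin genes of clades A3 and B are described here in activated B cells: Serpinb9, Serpinb9b, Serpinb6a, Serpinb6b, Serpinb1a, Serpina3f and Serpina3g. The deposited table holds 55401 gene rows, 69 of them serpins. The 7 genes were chosen by symbol after Serpinb9 and Serpinb6b had been noted for higher counts in the libraries of these same data that are labelled as an Adar1 knockout. The difference between genotypes therefore took part in the choice, and it is given for the 7 genes as a description without a p-value. All 7 genes were found, and all 7 passed the filter on low counts.

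A serpin exposes a flexible reactive loop that a protease takes for a substrate. When the loop is cut, its hinge inserts into the body of the serpin and the protease stays bound in a distorted, inactive form. Clade B serpins mostly lack a secretion signal and act in the cytosol and nucleus, where in lymphocytes and myeloid cells they are known for holding granule and lysosomal proteases in check. The clade A3 genes of the mouse are an expanded family related to human alpha1-antichymotrypsin, and some of them act inside cells.

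Libraries were made from B cells of C57BL/6 mouse spleen, isolated with anti-CD43 beads, which remove cells that carry CD43. All cells were kept for 36 hours in medium with anti-CD40 at 1 μg/ml and anti-IgM at 10 μg/ml, and all groups were plated at the same density. Wild-type (WT) mice gave 2 libraries, and mice labelled as a conditional knockout (cKO) of Adar1 in B cells gave the other 2. Adar1 (symbol Adar) encodes an adenosine deaminase that edits double-stranded RNA. The sources used here do not give the Cre driver, the ages of the mice or whether each library came from its own mouse or culture. The p-values below thus reflect how far these particular libraries differ, and that spread may be technical in part.

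Adar itself (ENSMUSG00000027951, chromosome 3, 89715022 to 89753446) was measured at 137 and 150 CPM (counts relative to the library total, after TMM scaling) in the WT libraries and at 218 and 233 CPM in the libraries labelled cKO. This is a log2 difference of 0.65 ± 0.063 (SE, n = 2 per genotype), in the direction opposite to the label. Counts over the whole gene do not show whether an exon was removed. The libraries are called cKO-labelled throughout for this reason. Libraries held 17327480 to 19669651 counts, so 1 count was worth 0.0508 to 0.0577 CPM. For a gene with no count, 3 counts set an upper limit of 0.153 to 0.173 CPM. Both this limit and the 95% intervals printed with count ratios cover counting error only, since PCR copies are not independent molecules. Over 14180 tested genes, edgeR called 1727 higher and 1353 lower in the cKO-labelled libraries. After a trend with GC content was removed, the numbers were 1319 higher and 1755 lower. The B-cell markers Cd79a, a chain of the antigen receptor, and Ms4a1 (CD20) were read in every library, at 730 to 964 CPM and 807 to 895 CPM.

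The part of each gene that meets the protease is shown first, because the paralogous pairs differ there. Each line gives, 5′ to 3′ on the coding strand, 22 codons of the GENCODE M21 transcript on GRCm38. The 8 codons in capitals encode the hinge, and the lower-case codons encode the rest of the loop with the site of cleavage.
Serpinb9: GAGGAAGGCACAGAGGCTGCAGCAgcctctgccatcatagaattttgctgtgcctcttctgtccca
Serpinb9b: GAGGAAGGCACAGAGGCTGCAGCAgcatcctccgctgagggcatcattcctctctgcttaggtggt
Serpinb6a: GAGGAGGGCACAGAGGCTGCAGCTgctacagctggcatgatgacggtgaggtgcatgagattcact
Serpinb6b: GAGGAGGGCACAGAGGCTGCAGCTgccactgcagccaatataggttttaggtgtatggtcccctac
Serpinb1a: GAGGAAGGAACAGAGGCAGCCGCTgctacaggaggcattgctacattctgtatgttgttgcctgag
Serpina3f: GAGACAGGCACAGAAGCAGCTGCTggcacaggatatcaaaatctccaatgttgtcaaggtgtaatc
Serpina3g: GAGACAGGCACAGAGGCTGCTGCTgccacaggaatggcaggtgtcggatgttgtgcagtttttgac

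The hinge codons of Serpinb9 and Serpinb9b were identical over all 24 bases, as were those of Serpinb6a and Serpinb6b, and Serpina3f and Serpina3g shared 22 of 24. Beyond the hinge the pairs shared far fewer bases: 13 of 42 for Serpinb9 and Serpinb9b (31%), 21 for Serpinb6a and Serpinb6b and 24 for Serpina3f and Serpina3g (57.1%). Over the aligned bases their coding sequences were 86.0%, 86.3% and 87.4% identical. For the last pair 744 bases were aligned, since the Serpina3g transcript used has only 744 coding bases against 1335 for Serpina3f. Each loop lies within 1 exon, from 33015693 to 33015758 on chromosome 13 for Serpinb9 and from 32978201 to 32978266 for Serpinb6b. On chromosome 12 the loop of Serpina3g runs from 104241066 to 104241131.

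Near-identical paralogues can share reads, and how the authors' counting treated reads that fit several places is not stated in the sources used here. Of the 50-base windows in the members' transcripts, 0.388% for Serpinb9, 3.12% for Serpinb6b and 3.42% for Serpinb1a also occurred exactly in a transcript of another gene. The share was 5.62% for Serpinb9b, 10.9% for Serpina3f, 13.1% for Serpinb6a and 16.0% for Serpina3g. At 100 bases it was 0 for Serpinb9, Serpinb6b and Serpinb1a and at most 5.05%, for Serpinb6a.

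In the cKO-labelled libraries 5 of the 7 serpins stood higher than in WT, by 3.4-fold to 13.2-fold, and Serpinb6a and Serpinb1a overlapped between genotypes. By edgeR's call, 5 of 7 were higher and 0 lower, beside 12.2% higher and 9.54% lower over all tested genes. Genotypes did not overlap for the same 5 genes, all of them higher, beside 57.9% of all tested genes (29.2% higher and 28.7% lower). Because the rule used this contrast, nothing is read from these shares. The median log2 difference of the 7 genes was 2.50, beside -0.0058 over all tested genes. In bulk RNA, fewer cells of a type and less RNA per cell cannot be told apart.

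**Figure D1:**
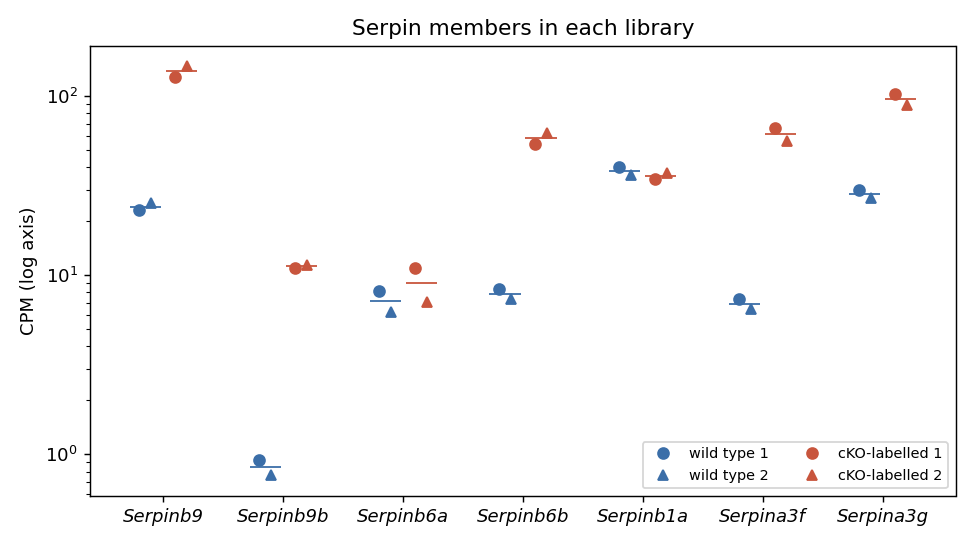
Level of each of the 7 serpins in CPM (log axis) in the 2 WT and 2 cKO-labelled libraries, with 1 point per library and a line at each genotype's mean. Serpinb9, Serpinb9b, Serpinb6b, Serpina3f and Serpina3g separate by genotype, while the points of Serpinb6a and Serpinb1a overlap.

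Serpinb9, the cytosolic inhibitor of granzyme B, lies on the plus strand of chromosome 13 from 33003250 to 33017957 (ENSMUSG00000045827). It had 398 and 494 counts in the WT libraries and 2297 and 2548 in the cKO-labelled ones, or 23.1 and 25.1 CPM against 128 and 146 CPM. Both cKO-labelled libraries stood far above both WT libraries, and the gap was wide beside the spread within each genotype. The means were 24.1 ± 1.43 and 137 ± 13.1 CPM (SD, n = 2), a log2 difference of 2.50 ± 0.079 (SE). Among the 14180 tested genes this difference ranked 154 from the top.

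Serpinb9b is the closest paralogue of Serpinb9 among the 7 genes and lies just downstream of it, from 33027416 to 33041884 on the plus strand (ENSMUSG00000021403). It was nearly silent in WT, with 16 and 15 counts (0.929 and 0.763 CPM), and had 197 and 199 counts (10.9 and 11.4 CPM) in the cKO-labelled libraries. The count ratio was 13.3 with an exact 95% interval of 9.21 to 19.8. The log2 difference of 3.72 ± 0.27 (SE) was the largest of the 7 and ranked 27 of all tested genes. Its antisense neighbour Gm36099 overlaps it over 3359 bases but had only 0, 4, 11 and 7 counts in WT1, WT2, cKO1 and cKO2.

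Serpinb6b, a reported inhibitor of granzyme A, lies upstream of Serpinb9 from 32965209 to 32979067 on the plus strand (ENSMUSG00000042842). It was read 143 and 144 times in WT and 972 and 1082 times in the cKO-labelled libraries, which is 8.30 and 7.32 CPM against 54.0 and 62.0 CPM. The groups lay well apart, with means of 7.81 ± 0.69 and 58.0 ± 5.68 CPM (SD, n = 2). The log2 difference was 2.89 ± 0.11 (SE).

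Serpinb6a, the mouse counterpart of human SERPINB6 and an inhibitor of cathepsin G, shares the hinge codons of Serpinb6b. It lies on the minus strand from 33917918 to 34002794 (ENSMUSG00000060147). WT libraries gave 8.12 and 6.20 CPM and cKO-labelled libraries 11.0 and 7.05 CPM. Only the first cKO-labelled library stood above both WT libraries. The log2 difference was 0.34 ± 0.21 (SE) and was not called. It was -0.02 without cKO-labelled library 1 and 0.63, past the threshold, without cKO-labelled library 2. Nqo2 covers 23757 bases of the same locus on the opposite strand, and the library kit does not mark strand, so reads of the 2 genes may be mixed where their exons meet. Nqo2 had 132, 107, 150 and 128 counts in WT1, WT2, cKO1 and cKO2 and was not called.

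Serpinb1a, counterpart of human SERPINB1, inhibits neutrophil elastase, cathepsin G and proteinase 3. It lies on the minus strand from 32842092 to 32851185 (ENSMUSG00000044734). Its level was 40.3 and 36.2 CPM in WT against 34.5 and 37.0 CPM in the cKO-labelled libraries. The genotypes overlapped, and the log2 difference was -0.10 ± 0.09 (SE).

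Serpina3g, also known as Spi2A, is an inhibitor of cysteine cathepsins inside cells. It lies on the plus strand of chromosome 12 from 104236245 to 104241939 (ENSMUSG00000041481). It was measured at 29.7 and 26.9 CPM in WT and at 102 and 89.4 CPM in the cKO-labelled libraries, with 511, 529, 1845 and 1561 counts. The log2 difference of 1.76 ± 0.081 (SE) was the smallest of the 5 genes that separated by genotype. Serpina3f, its neighbour from 104214544 to 104221129 on the same strand (ENSMUSG00000066363), started lower, at 7.31 and 6.46 CPM, and reached 66.3 and 56.2 CPM. Its counts were 126, 127, 1194 and 981, and its log2 difference was 3.16 ± 0.12 (SE). For both genes cKO-labelled library 1 was the higher of its pair, whereas library 2 was the higher for Serpinb9, Serpinb9b and Serpinb6b.

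Levels were compared between genes on the deposited FPKM values, which divide by exonic length. In WT the order of mean FPKM was Serpinb1a at 16.5, Serpina3g at 13.4, Serpinb9 at 6.88, Serpinb6b at 3.45, Serpina3f at 3.0, Serpinb6a at 1.32 and Serpinb9b at 0.255. No neighbours in that order overlapped between their libraries. In the cKO-labelled libraries the order became Serpina3g at 45.6, Serpinb9 at 39.2, Serpina3f at 26.8, Serpinb6b at 25.6, Serpinb1a at 15.5, Serpinb9b at 3.33 and Serpinb6a at 1.67. There Serpina3f and Serpinb6b overlapped, and the others in sequence did not. Serpinb1a thus moved from the first place to the fifth on the FPKM scale with mean levels of 16.5 and 15.5, and Serpinb9b passed Serpinb6a.

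The 7 genes made up 42.3% and 40.7% of all serpin counts in WT and 71.6% and 78.2% in the cKO-labelled libraries. Their counts were 2028, 2142, 7325 and 7139 in WT1, WT2, cKO1 and cKO2. All 69 serpin rows together took 0.0277% and 0.0268% of the library in WT and 0.0569% and 0.0523% in the cKO-labelled libraries.

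Promoter sequence was taken from a table of RefSeq starts on GRCm38.p6, in which 6 of the 7 members were matched, all but Serpinb1a. The 250 bases before each annotated start were searched on both strands for an interferon-stimulated response element (ISRE, searched as GAAA, any 2 bases and GAAA again), a gamma-activated site (GAS, TTCNNNGAA) and the NF-kB motif. ISRE letters occurred in 2.98% of 32851 promoter windows of the same length, GAS letters in 7.02% and the NF-kB motif in 7.25%. Matches were found in 4 of the 6 genes and are given 5′ to 3′ on the gene's strand with the matching letters in capitals.
Serpinb9, chr13:33004291-33004540, plus strand: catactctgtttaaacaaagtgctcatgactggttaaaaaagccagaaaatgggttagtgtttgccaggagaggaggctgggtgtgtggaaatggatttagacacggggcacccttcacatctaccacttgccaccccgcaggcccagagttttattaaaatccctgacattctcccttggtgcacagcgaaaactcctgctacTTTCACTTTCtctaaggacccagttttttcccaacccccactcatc
Serpina3f, chr12:104214294-104214543, plus strand: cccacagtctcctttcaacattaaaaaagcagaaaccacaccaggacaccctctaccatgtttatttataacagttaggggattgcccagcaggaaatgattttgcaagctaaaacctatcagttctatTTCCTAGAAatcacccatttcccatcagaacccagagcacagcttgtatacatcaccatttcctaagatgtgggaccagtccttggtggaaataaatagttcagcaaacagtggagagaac
Serpina3g, chr12:104235897-104236146, plus strand: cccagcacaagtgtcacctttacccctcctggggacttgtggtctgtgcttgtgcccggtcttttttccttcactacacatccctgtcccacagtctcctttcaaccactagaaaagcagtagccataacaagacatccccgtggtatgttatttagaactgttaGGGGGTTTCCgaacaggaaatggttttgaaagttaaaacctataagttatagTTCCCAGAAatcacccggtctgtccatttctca
Serpinb6a, chr13:34002795-34003044, minus strand: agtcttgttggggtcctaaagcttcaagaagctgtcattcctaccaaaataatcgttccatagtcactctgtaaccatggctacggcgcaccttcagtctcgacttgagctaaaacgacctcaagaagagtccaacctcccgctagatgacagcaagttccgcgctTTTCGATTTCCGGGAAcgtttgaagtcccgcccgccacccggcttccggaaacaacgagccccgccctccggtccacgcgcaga
RefSeq starts can differ from those of the deposited table: for Serpinb9 the RefSeq window lies inside the span the table gives to the gene, and for Serpina3g it ends before it. In Serpinb9 the capitals are an ISRE match on the reverse strand, 46 bases before the start. The GAS matches of Serpina3f and Serpina3g lie 121 and 33 bases before the start, and Serpina3g also has an NF-kB match at 85. In Serpinb6a, an ISRE match on the reverse strand and a GAS match overlap each other, at 84 and 77 bases, so the capitals form a single run. The second annotated start of Serpinb6a had no match, and the second of Serpina3f covers the same GAS letters. Serpinb9b and Serpinb6b, with log2 differences of 3.72 and 2.89, had none of these motifs in their windows, chr13:33027164-33027413 and chr13:32965011-32965260. Serpinb6a, whose genotypes overlapped, had the ISRE and GAS letters. A match describes letters only, and no match says only that these letters are not in the window.

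The 5 clade B members lie on chromosome 13 between 32842092 and 34002794. Serpinb6b, Serpinb9 and Serpinb9b form a block of 76676 bases in 1 orientation, with gaps of 24182 and 9458 bases between them. Serpinb1a starts the stretch on one side of the block and Serpinb6a ends it on the other, with gaps of 114023 and 876033 bases. The stretch holds 17 serpin rows, of which 11 had no count in any library and 6 were tested. The sixth tested serpin was Serpinb1b, a paralogue of Serpinb1a with 10, 11, 15 and 14 counts in WT1, WT2, cKO1 and cKO2. Most serpin genes around the block thus gave no reads in these cells under either genotype.

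Of 24 other rows in the stretch, 17 had no count and 3 were tested. Ripk1, a kinase of cell death signalling, and Nqo2, a quinone reductase, had log2 differences of 0.12 and 0.26 and were not called. The other was Gm47662, a lincRNA named here after its values were seen (ENSMUSG00000114185, 32997062 to 33001750). It lies upstream of Serpinb9 on the same strand, within the gap between Serpinb6b and Serpinb9. It had 16 and 17 counts in WT and 141 and 137 in the cKO-labelled libraries, a log2 change of 3.12 ± 0.29 (SE) with adjusted p = 1.78e-08 in the quasi-likelihood test of edgeR (Benjamini-Hochberg adjustment). Whether its reads belong to a transcript of its own or to its serpin neighbours was not tested.

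Serpina3f and Serpina3g lie 15115 bases apart on chromosome 12, in a serpin cluster from 103614786 to 104414329 with 28 serpin rows. Of these, 11 had no count, 12 were tested, and the 2 called higher were Serpina3f and Serpina3g. The remaining 10 tested serpins of the cluster were not called. None of its 15 other rows was tested, and 13 of them had no count.

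**Figure D2:**
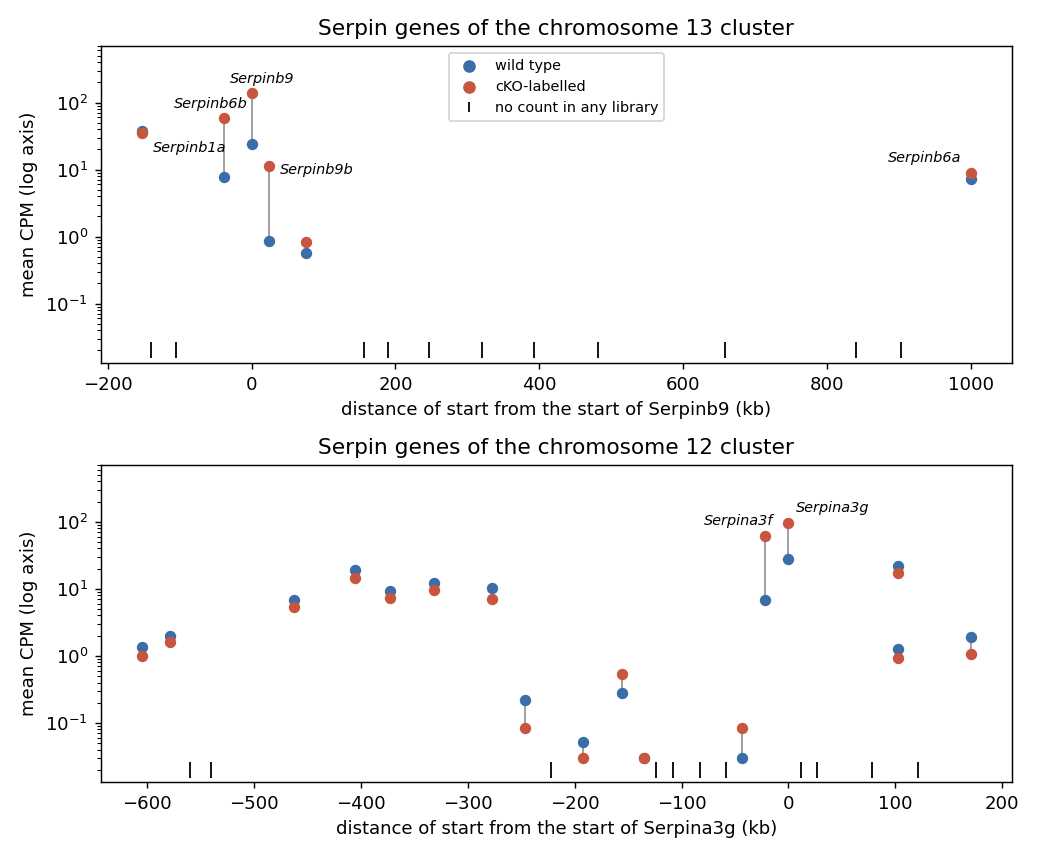
Mean CPM by genotype (log axis; means under 0.03 are drawn at 0.03) of serpin rows, n = 2 libraries each, against distance in kb from the start of Serpinb9 or Serpina3g, with ticks for rows without a count in any library. The higher genes stand next to each other: Serpinb6b, Serpinb9 and Serpinb9b in the first cluster, Serpina3f and Serpina3g in the second.

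The other 62 serpin rows are those left once the 7 genes had been chosen. That choice was made with this contrast known, so it may also have shaped the calls that remain. Among the 62 rows 33 had no count, 19 were tested, 2 rose, 1 fell and 16 were not called, with a median log2 difference of -0.32. These counts are near the shares over all tested genes, 12.2% higher and 9.54% lower. At an unadjusted p under 0.05, 3 were higher and 3 lower. Without cKO-labelled library 1, edgeR called 8 of them lower: Serpinf1, Serpina1a, Serpina1b, Serpina1c, Serpina1e, Serpina3k, Serpina3n and Serpinf2.

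Serpine2 (protease nexin-1, an inhibitor of thrombin and plasminogen activators) was measured at 2.38 and 3.10 CPM in WT and at 6.50 and 6.53 CPM in the cKO-labelled libraries. It rose by 1.24 ± 0.25 (log2, SE), with adjusted p = 0.000693 in the quasi-likelihood test of edgeR (Benjamini-Hochberg adjustment). Serpini1 (neuroserpin, an inhibitor of tissue plasminogen activator) had 13.5 and 14.4 CPM against 21.8 and 19.9 CPM. Its rise was 0.58 ± 0.13 (log2, SE), with adjusted p = 0.0015 by the same edgeR test and Benjamini-Hochberg adjustment. Serpinf1 (pigment epithelium-derived factor) was the 1 that went the other way, from 34.9 and 34.1 CPM to 22.4 and 21.1 CPM. It fell by 0.66 on the log2 scale with an SE of 0.1 and adjusted p = 2.38e-05 in the edgeR test with Benjamini-Hochberg adjustment. For these 3 genes both cKO-labelled libraries lay outside the WT range, and the sizes were smaller than those of the 5 separated members. Serpinb8, a further clade B serpin, had 2, 0, 10 and 13 counts in WT1, WT2, cKO1 and cKO2, a count ratio of 12 with an exact 95% interval of 2.96 to 105. Serpinb8 did not pass the count filter and was named after its values were seen, so these counts are given as description only.

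The most abundant other serpins that were not called are best known as liver genes. Serpina3k was at 21.5, 21.6, 20.2 and 14.2 CPM in WT1, WT2, cKO1 and cKO2. Serpina1b, a form of alpha1-antitrypsin, was at 18.8, 19.0, 20.0 and 8.82 CPM, and Serpinc1, antithrombin, at 12.4, 12.9, 13.7 and 12 CPM. A list of 12 liver serpins, made after their values were seen and therefore not tested, summed to 102, 101, 102 and 60.7 CPM. All 12 were lowest in cKO-labelled library 2, at 0.367 to 0.945 of the WT mean. The same held for 12 plasma proteins of the liver, where Alb (albumin) stood at 301, 335, 346 and 155 CPM and the sums were 534, 538, 559 and 246 CPM. Reads of liver genes were thus present in all 4 libraries, and their source was not tested. Of the 7 members, Serpinb9, Serpinb9b, Serpinb6b and Serpinb1a were higher in that library than in cKO-labelled library 1, and Serpina3f, Serpina3g and Serpinb6a were lower.

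**Figure D3:**
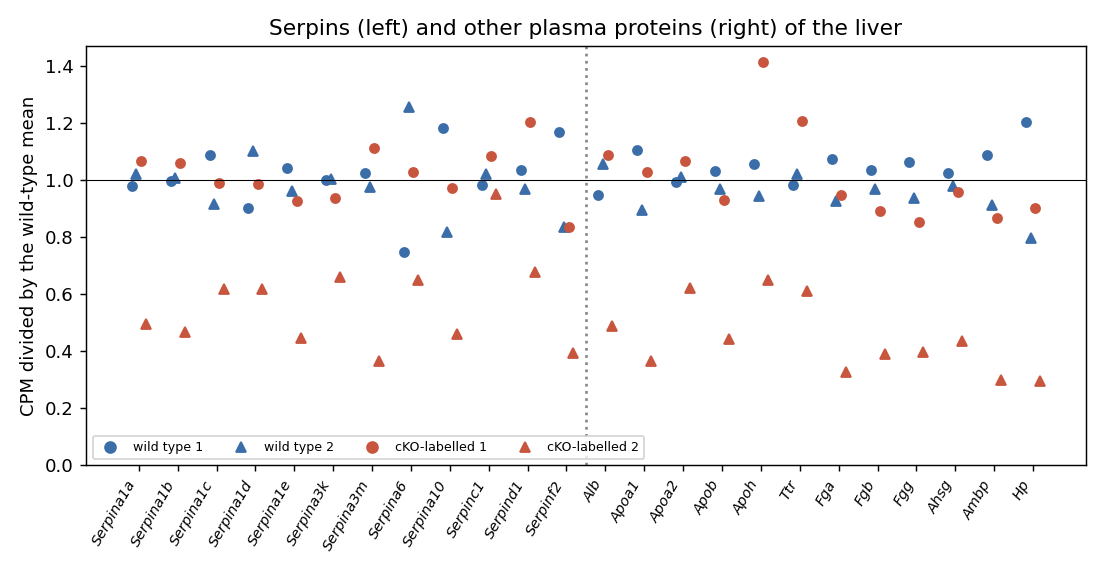
Level of 12 liver serpins (left) and 12 liver plasma proteins (right) in each library, as CPM divided by the WT mean, with 1 point per library. The serpins are all lowest in cKO-labelled library 2, at 0.367 to 0.945, while cKO-labelled library 1 lies between 0.837 and 1.2.

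**Figure D4:**
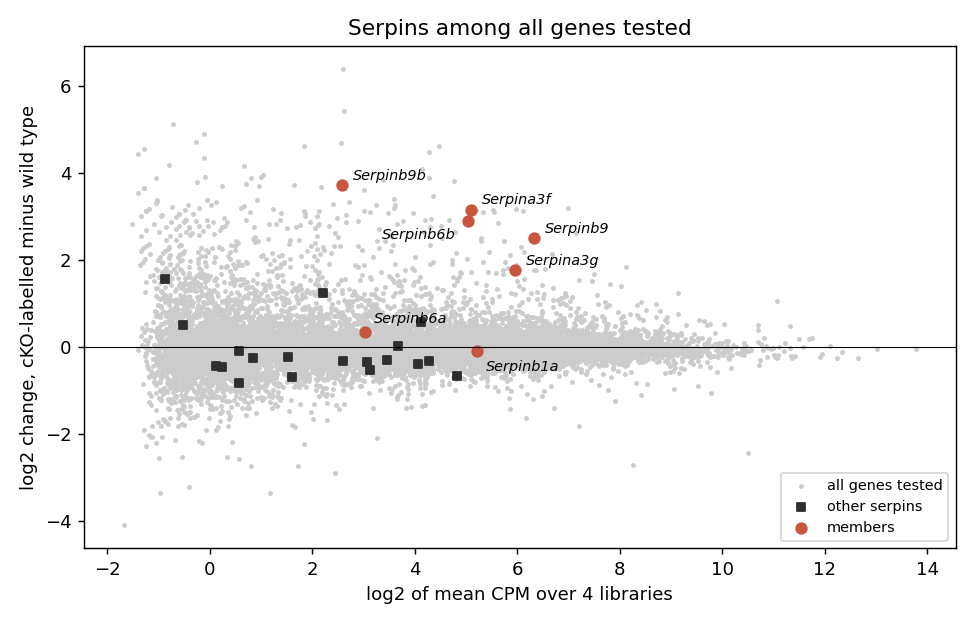
Log2 difference between genotypes (cKO-labelled minus WT) against the log2 of mean CPM over the 4 libraries for all tested genes, with the 7 members and the other 19 tested serpins marked. Serpinb9b, Serpina3f, Serpinb6b, Serpinb9 and Serpina3g lie between 1.76 and 3.72, and Serpinb6a and Serpinb1a lie near 0.

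A list of 34 proteases that these and related serpins are known to inhibit, or that belong to the same families, was examined next. Of these, 11 had no count in any library, among them Ctsg, Gzmk and the mast cell protease Mcpt4. Among the 17 that were tested, 9 rose and none was called lower, beside 12.2% higher and 9.54% lower over all tested genes. Gzmb, Gzmc, Plat and Ctsw did not reach the filter's minimum count of 10 in both WT libraries. They passed it with the cKO-labelled libraries, where they are higher, and could hardly be called lower. The 9 are thus not weighed against these shares. The median log2 difference was 0.28. A lower level at an unadjusted p under 0.05 was found for 1 gene, and DESeq2 called 8 higher and 0 lower.

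The granzymes, the granule proteases of cytotoxic lymphocytes, were near the limit of detection. Gzmb, the target of Serpinb9, had 2 and 4 counts in WT and 18 and 23 in the cKO-labelled libraries, a count ratio of 7.11 with an exact 95% interval of 3.0 to 20.5. It rose by 2.78 ± 0.68 (log2, SE; adjusted p = 0.00398, quasi-likelihood test of edgeR, Benjamini-Hochberg adjustment). Leaving out WT library 1 gave an edgeR adjusted p of 0.0722, and leaving out cKO-labelled library 2 gave 0.0727, at log2 changes of 2.46 and 2.58. Gzmc had 2 and 0 counts in WT and 12 and 20 in the cKO-labelled libraries, a count ratio of 16.6 with an interval of 4.25 to 143. Its adjusted p by the edgeR test with Benjamini-Hochberg adjustment was 0.00347, and it was 0.101 without WT library 2, at a log2 change of 2.88. Without WT library 1 the remaining WT library held 0 counts of Gzmc, so no fold is given, and without cKO-labelled library 2 Gzmc did not pass the filter. Gzma, the granzyme inhibited by Serpinb6b, had 0, 1, 8 and 3 counts and was not tested.

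Per length, Gzmb was at 0.08 and 0.14 in WT and 0.7 and 0.92 in the cKO-labelled libraries on the FPKM scale, where its inhibitor Serpinb9 had means of 6.88 and 39.2. Markers of NK and cytotoxic cells summed to 1.68 and 1.58 CPM in WT against 5.66 and 7.39 CPM in the cKO-labelled libraries. Of their 6 genes 2 were tested and both were called higher, beside 12.2% over all tested genes. Of these, Nkg7, with 9 and 2 counts in WT, passed the filter only through the cKO-labelled libraries. T-cell markers summed to 2.08 to 3.72 CPM, with 2 tested and no member called. Whether a few cytotoxic cells gave the granzyme reads was not tested.

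The neutrophil proteases inhibited by Serpinb1a were almost unread. Elane had 1, 0, 0 and 0 counts, Prtn3 had 5, 0, 0 and 0, and Ctsg had none. Neutrophil markers summed to 1.22 and 1.32 CPM in WT against 3.55 and 4.18 CPM in the cKO-labelled libraries, with Ly6g at 0 counts. Of the 8 genes 3 were tested and 1 was called higher, beside 12.2% over all tested genes. Each of the 3 passed the filter only through the cKO-labelled libraries.

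Lysosomal cathepsins, the proteases that Serpina3g is known to inhibit, were more abundant per length, with Ctss at a mean of 213 FPKM in WT where Gzmb had 0.11. Ctss, which processes the invariant chain in antigen-presenting cells, was at 294 and 287 CPM in WT and at 355 and 351 CPM in the cKO-labelled libraries. It rose by 0.28 ± 0.057 (log2, SE), with adjusted p = 0.00076 in the quasi-likelihood test of edgeR (Benjamini-Hochberg adjustment). Ctso went from 61.2 and 54.2 to 73.6 and 68.0 CPM, with adjusted p = 0.00513 by edgeR and Benjamini-Hochberg adjustment. For Ctso the log2 change was 0.30, and it was 0.20 without WT library 2 (edgeR adjusted p = 0.145) and 0.17 with the GC trend removed (0.119). Ctsw, a cathepsin of cytotoxic cells, was called with a log2 change of 1.62 and adjusted p = 0.0134 by the same edgeR test. Without WT library 1 its log2 change was 1.38 (edgeR adjusted p = 0.118), without cKO-labelled library 1 it was 1.53 (0.0794), and by DESeq2 it was 1.63 (0.0598). Ctsz, at 605 to 699 CPM, and Ctsc, at 297 to 331 CPM, were not called, with log2 differences of -0.14 and -0.10. Ctsb, Ctsh and Ctsl were also tested and not called, with log2 differences of 0.04, -0.07 and -0.21.

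Both plasminogen activators rose. Plat (tissue type) had 2 and 10 counts in WT and 56 and 66 in the cKO-labelled libraries. Its change was 3.39 ± 0.49 (log2, SE; edgeR's adjusted p = 1.67e-05, Benjamini-Hochberg). The log2 change of Plat was 2.74 without WT library 1 and 4.8 without WT library 2, and it was called in both cases. Plau (urokinase) stood at 3.08 and 2.95 CPM against 9.55 and 7.96 CPM, a change of 1.54 ± 0.23 (log2, SE; edgeR's adjusted p = 1.79e-05, Benjamini-Hochberg). Serpine2 and Serpini1, known inhibitors of these enzymes, were the 2 serpins outside the 7 that passed the test.

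Of the caspases, Casp1, the inflammasome protease, rose from 83.4 and 79.3 CPM to 108 and 104 CPM, with edgeR's adjusted p = 7.14e-05 (Benjamini-Hochberg). Casp8, the initiator caspase of death receptors, rose from 75.7 and 75.3 CPM to 94.0 and 93.7 CPM, with edgeR's adjusted p = 0.000633 (Benjamini-Hochberg). Casp4, at 186 to 204 CPM, was not called.

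Protease inhibitors outside the serpin family were given by a list of 19 genes. Of these 4 had no count (Stfa1, Stfa2, Stfa3 and A2m), 11 were tested, 4 rose and none was called lower, beside 12.2% higher and 9.54% lower over all tested genes. The median log2 difference was 0.23. A lower level at an unadjusted p under 0.05 was found for 1 of them, and DESeq2 also called 4 higher and 0 lower. Cst6 (cystatin E/M, an inhibitor of cysteine cathepsins) had 2.15 and 2.08 CPM in WT against 7.72 and 8.14 CPM in the cKO-labelled libraries. Its change was 1.9 ± 0.24 (log2, SE; edgeR's adjusted p = 2.86e-06, Benjamini-Hochberg).

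Spint1, a Kunitz-type inhibitor of membrane serine proteases, had 12 and 5 counts in WT and 41 and 35 in the cKO-labelled libraries. With WT library 2 under the filter's minimum count of 10, Spint1 passed through the cKO-labelled libraries and could hardly be called lower. Its change was 2.19 ± 0.51 (log2, SE), with edgeR's adjusted p = 0.00285 (Benjamini-Hochberg), which became 0.0591 without WT library 2, at a log2 change of 1.61. Without WT library 1 the log2 change of Spint1 was 3.04. The inhibitor of apoptosis proteins Xiap and Birc2 had changes of 0.26 ± 0.062 and 0.29 ± 0.065 (log2, SE). Their adjusted p-values in edgeR's test (Benjamini-Hochberg) were 0.00283 and 0.00205, and 0.0624 and 0.0696 with the GC trend removed. Birc2 also lost its call without cKO-labelled library 1, at an edgeR adjusted p of 0.0571. Birc3, at 208 to 224 CPM, Cst3 (cystatin C), at 343 to 394 CPM, and the calpain inhibitor Cast, at 66.9 to 71.5 CPM, were not called.

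**Figure D5:**
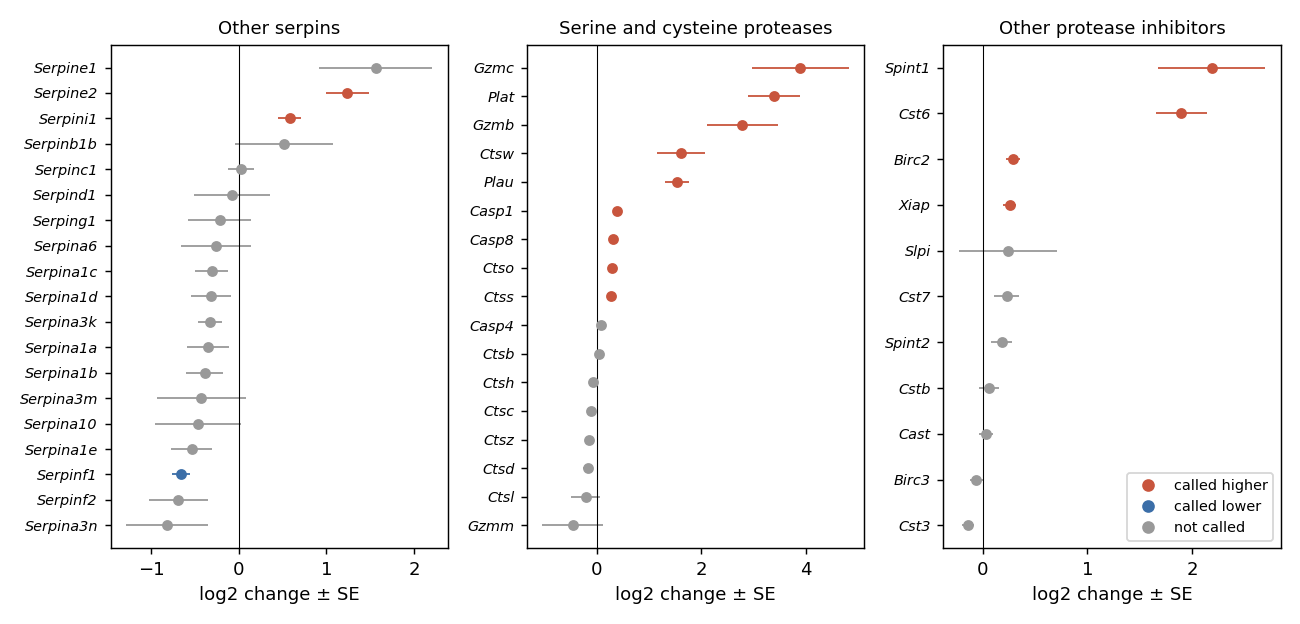
Log2 difference between genotypes (cKO-labelled minus WT) for the tested genes of 3 lists: other serpins, serine and cysteine proteases, and other protease inhibitors, with 1 point per gene, bars of 1 SE and colours for the edgeR call. Most other serpins lie left of 0, with a median of -0.32, and the called proteases and inhibitors all lie right of it.

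Markers of other cell types that can express these serpins moved with genotype in several lists. Over all tested genes, 12.2% were called higher and 9.54% lower. Of the dendritic, macrophage, mast cell and plasma cell lists, 5, 5, 1 and 5 genes passed the filter and were tested. Dendritic cell genes summed to 195 and 193 CPM in WT against 366 and 417 CPM in the cKO-labelled libraries, with 4 of 8 called higher. The list includes Ccr7, at 137, 136, 258 and 304 CPM, which activated B cells also express. The other called genes were Flt3, at 13.1, 13.3, 42.0 and 38.4 CPM, Zbtb46, at 40.9, 40, 59.1 and 66.9 CPM, and Itgax, at 0.406, 0.509, 2.00 and 2.92 CPM. Itgax, with 7 and 10 counts in WT, passed the filter only through the cKO-labelled libraries. Xcr1 was tested and not called, Cd209a had 0 counts, Clec9a had 1, 1, 2 and 2 counts, and Siglech had 9, 2, 3 and 14. Macrophage and monocyte genes summed to 130 and 123 CPM against 46.4 and 55.5 CPM, and nearly all of that gap was Adgre1, the 1 of 8 called lower, at 111, 108, 30.3 and 40.3 CPM. Cd68, Lyz2, Csf1r and C1qb were not called, with log2 differences of -0.26, 0.30, -0.58 and 0.36. Mast cell and basophil genes summed to 4.29 and 2.54 CPM against 11.4 and 12.1 CPM, with 1 of 5, Kit, called higher and Fcer1a at 0. Plasma cell genes summed to 609 and 620 CPM against 699 and 717 CPM. Of these, 3 of 5, Jchain, Prdm1 and Xbp1, were called higher, with log2 differences of 1.7, 1.1 and 0.2. Sdc1 went the other way, at 5.8, 6.51, 4.66 and 3.84 CPM in WT1, WT2, cKO1 and cKO2, and was not called (log2 difference -0.53). Irf4, at 438, 461, 457 and 467 CPM the largest part of the sums, was not called either (0.04). The part of these cell types in the serpin values was not tested.

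Interferon-stimulated genes were also higher beside the serpins: all 15 on the list were called higher, beside 12.2% over all tested genes. Their sums were 522 and 519 CPM in WT and 1670 CPM in each cKO-labelled library. Their median log2 difference was 2.50. This list too was chosen with earlier results known. Whether the serpins respond to interferon in these cells was not tested.

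The genes most like Serpinb9 and Serpinb6b in pattern were found by the distance between log2 profiles over the 4 libraries, among 9427 genes averaging 5 CPM or more, predicted genes and pseudogenes left out. With 2 libraries per genotype such a profile holds little more than the difference between genotypes. Nearest to Serpinb9 were Irf7 at a distance of 0.142, Nrp2 at 0.164 and Adcy6 at 0.196. Irf7, an interferon regulatory factor, stood at 16.4, 16.6, 88.8 and 91.5 CPM in WT1, WT2, cKO1 and cKO2. Its neighbour Phrf1 overlaps it on the opposite strand. Nearest to Serpinb6b were Tbc1d8 at 0.152, Apol7c at 0.236 and Parp12 at 0.237, with log2 differences of 2.94, 3.10 and 2.82.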

How the data were processed

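Poly(A) RNA of activated splenic B cells was sequenced in 2 WT and 2 cKO-labelled libraries. The kits, per the labels' protocols, were RNeasy for extraction and NEBNext Ultra RNA for the libraries; the latter keeps no strand information. Tools named in the submitters' processing notes are HISAT2 2.0.1 (an aligner), HTSeq 0.6.1 (a read counter), cutadapt 1.9.1 and bcl2fastq 2.17.1.14, with the genome build GRCm38. The sources used here do not give the read length, the strand setting, the annotation release or how reads with several placements were treated. The authors deposited 1 table with raw read counts and FPKM values per gene, beside other columns such as exonic length. FPKM recomputed from the counts differed from the deposited FPKM by at most 0.005. Of the 55401 rows, 99.53% matched GENCODE M21 by identifier, and 0 lacked a name. Positions are 1-based on GRCm38, as deposited.

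Counts were filtered with filterByExpr (minimum count 10, minimum total 15), scaled by TMM and fitted with edgeR 4.0.16 in R 4.3.3 by its quasi-likelihood test on all 4 libraries, with genotype as the only term. A gene was called at a Benjamini-Hochberg adjusted p under 0.05 over all 14180 tested genes, and SE is the log2 difference over the square root of F. On simulated counts for this comparison (2 against 2 libraries, 14122 genes tested), 100% of 67 genes changed 4-fold, 100% of 67 changed 2-fold and 97% of 66 changed 1.5-fold were recovered, with 11 false calls among 209. The changed genes were drawn from those averaging 5 CPM or more, and all genes were given the same dispersion. The recovery thus does not describe genes with fewer counts, such as the granzymes. Count ratios carry exact 95% intervals. Pattern distance is the Euclidean distance between centred log2 CPM profiles (prior count 2).

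The 7 members, the gene lists and the promoter motifs were chosen with earlier results of these data known. Named genes are the 7 members, Adar, up to 8 called genes of each list by smallest adjusted p, its 3 most abundant uncalled genes of at least 1 CPM, and the 3 genes nearest in pattern to Serpinb9 and to Serpinb6b. Genes outside this rule, such as Ctsb, Ctsh, Ctsl, Ctsw, Gzma, Elane, Prtn3, Ctsg, Serpinb1b, Serpinb8 and the liver genes, were named after their values were seen. Alternatives were DESeq2 1.42.0, RLE and upper-quartile scaling, no filter and a filter of 1 CPM in 2 libraries, a replicate block, ribosomal RNA rows left out, each library left out and, chosen after seeing the data, removal of a GC trend by loess (span 0.3).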

Additional observations from a re-analysis of the deposited data

How the results depend on the processing

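Over 12 alternatives the log2 differences of the members, given as description, were 2.38 to 2.59 for Serpinb9, 3.57 to 3.85 for Serpinb9b, 2.77 to 2.99 for Serpinb6b, 3.03 to 3.27 for Serpina3f, 1.66 to 1.86 for Serpina3g and -0.22 to -0.02 for Serpinb1a. With 1 library left out at a time Serpinb6a ranged from -0.02 to 0.63, and it was called only without cKO-labelled library 2. DESeq2 called 795 genes lower. Among the other serpins, 3 were called lower (and 3 higher, Serpinb8 added) without a filter on low counts, 4 lower with the replicate number as a block, and between 1 and 8 lower with 1 library left out. Among the proteases 1 was called lower with upper-quartile scaling, without a filter and with the GC trend removed. Among the other inhibitors, 1 was called lower with upper-quartile scaling, and 2 higher and 1 lower with the GC trend removed. The cause of these differences was not tested. Where a library was left out, the lone library of its genotype was assumed to vary like the others. Libraries with the same number did not deviate together (r = 0.0174 over 10175 genes averaging 5 CPM or more), so the numbers are not taken as pairs. The block changed no call of the 7 members. With 2 libraries per genotype, genes near the count floor, such as the granzymes, are the least certain.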
